A study of Mus musculus with 18 samples.

Results

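The genes described here are 49 components of the cytoplasmic and nuclear machinery that destroys messenger RNA: the CCR4-NOT, PAN2-PAN3 and PARN deadenylases with their BTG/TOB adaptors, the decapping enzymes and their LSM1-7 ring, the XRN exonucleases, the RNA exosome, and the factors of nonsense-mediated decay. They were chosen by symbol from the 43432 genes of the RNA table, and all 49 were found. 48 of them reached a mean of 50 normalised reads and were tested among 10972 genes. The exception was Lsm7, a ring subunit, which was listed at 11.4 to 51.0 normalised reads. The samples were T cells of C57BL/6 mice, of a sex and age that no source used here gives, in 8 RNA-seq libraries and 10 GCLiPP libraries (6 from Th2 cells and 4 from CD8 cells). GCLiPP cross-links RNA to protein with ultraviolet light, captures all RNA-bound proteins together, and sequences the protected fragments. Th2 cells were grown from CD4 T cells with IL-4, an antibody to interferon gamma and IL-2, CD8 cells were grown with IL-12 and IL-2, and per the methods a culture drew on several pooled mice. Per the methods cells were first activated with antibodies to CD3 and CD28 and expanded, and the sample records give 5 days of culture. Resting cells had therefore been activated before. Each cell type was then either left resting or restimulated with PMA and ionomycin, drugs that imitate T cell receptor signalling, for 4 h. These 4 states were each sequenced without and with actinomycin D, an inhibitor of RNA synthesis. Per the methods the drug followed the stimulation, so RNA synthesis was open during the stimulation. The sample records list ultraviolet light of 254 nm and 8000 mJ for all 18 samples. Every combination of cell type, state and drug had 1 RNA-seq library.

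Most messenger RNAs are destroyed from their ends. The poly(A) tail is shortened first, by PAN2-PAN3 and then by CCR4-NOT, which proteins bound to the 3′ UTR, among them the BTG/TOB family, can bring to a transcript. The body is then cut either from the front, after DCP2 removes the cap and XRN1 follows, or from the back by the exosome, while nonsense-mediated decay, led by the helicase UPF1, sends transcripts with an early stop codon into the same routes. In T cells these enzymes set how long activation and cytokine transcripts last, and BTG1 and BTG2 are known for their part in T cell quiescence.

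The libraries held 24154849 to 31042504 gene reads. T cell genes were present in all 8, and Cd4 was listed at 20061 to 39568 normalised reads in the Th2 libraries and at 25.9 to 280.9 in the CD8 libraries. Cd8a was at 10516 to 15750 in the CD8 libraries and at 1331 to 2401 in the Th2 libraries, so the Th2 libraries were not free of it. Il1rl1, listed among the Th2 markers, went against its label with 2325 to 3563 in CD8 cells and 50.6 to 113.3 in Th2 cells. Erythroid markers summed to at most 8.9. The summed level of 6 myeloid markers was 114.0 to 176.7 without and 275.6 to 479.1 with actinomycin D, with S100a8 at 0 in every library. The part of these genes in the results was not tested.

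**Figure D1:**
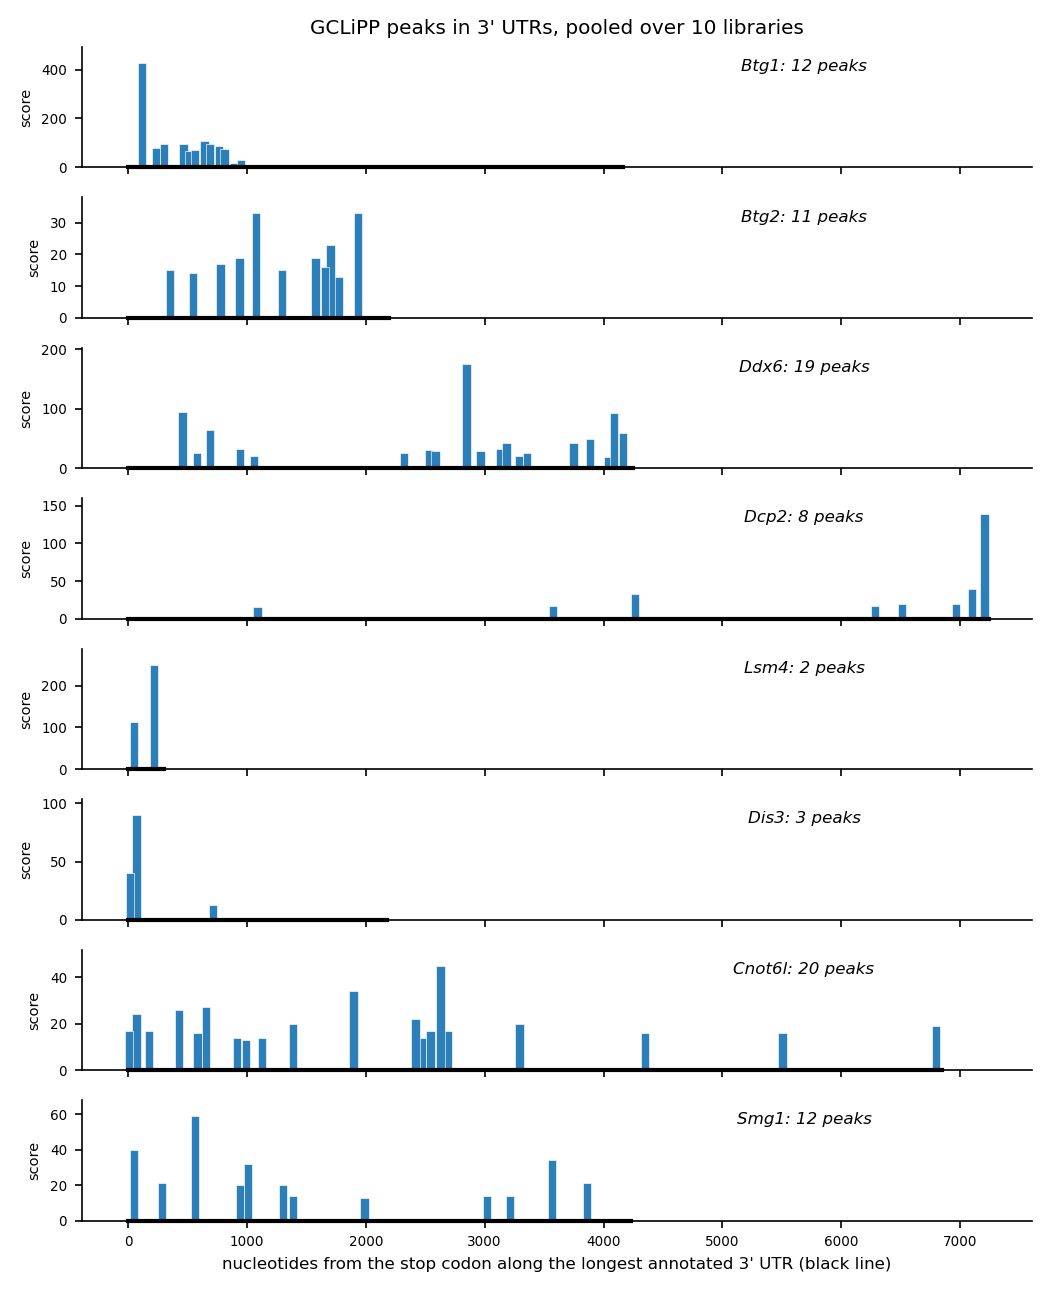
Position and score of the GCLiPP peaks of 8 genes. The horizontal axis gives nucleotides from the stop codon to the peak centre, the black line the longest annotated 3′ UTR, and each bar 1 peak of 70 nt with the authors' score as its height on a scale of its own per gene. All 12 peaks of Btg1 sit within the first 22.8% of its 3′ UTR, and the 8 peaks of Dcp2 include 1 of score 139 at its very end.

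The transcripts of the decay machinery themselves carried protein-bound sites in the GCLiPP map. The pooled map listed 179 of its 27729 peaks on 37 of the 49 genes (75.5%), against 59.1% of the genes tested in RNA-seq. Of the 179, 178 lay in an annotated 3′ UTR and 1 in an intron of Cnot4. The authors searched for peaks only in 3′ UTRs, so this location was set in advance. The median number was 3 peaks per gene with a peak, against 2 among the tested genes, and the median of each gene's best score was 35 against 34. The score is a whole number that no source explains, and no value per GCLiPP library was analysed here, so these are descriptions with no error. Across 48 members the number of peaks went with the length of the longest annotated 3′ UTR (Spearman's rho 0.515) and with the RNA level (rho 0.621). These points share the same pooled libraries.

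Cnot6l, which encodes a catalytic CCR4-NOT subunit, carried the most peaks of the members, 20 along a 3′ UTR of 6847 nt, none scoring above 45. Ddx6, an RNA helicase that links CCR4-NOT to decapping, carried 19 with a best score of 176. Btg1 and the nonsense decay kinase Smg1 each carried 12, and Btg2 carried 11. Among single peaks the highest scores of the members were 428 on Btg1, 250 on Lsm4, a subunit of the LSM1-7 ring, 176 on Ddx6, 139 on the decapping enzyme gene Dcp2 and 90 on Dis3, the main exosome nuclease. Btg1 and Btg2 differed in layout along the longest annotated 3′ UTR of each, and which form the cells made was not tested. The Btg1 peaks covered 744 nt in 6 separate stretches between 2.8 and 22.8% of the way along a 3′ UTR of 4166 nt (to 19.5% without the 2 farthest, which the list names for CD8 cells), whereas those of Btg2 spread from 16.0 to 88.0% of one of 2199 nt. The 12 members without a listed peak were Cnot8, Cnot10, Cnot11, Tob1, Pan2, Dcp1a, Dcp1b, Xrn2, Exosc3, Exosc7, Exosc9 and Dis3l.

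The highest peaks of 3 members are given by their central 30 nt, because they are among the strongest of the set. Coordinates are of GRCm38 (mm10), all lie in the annotated 3′ UTR, and the letters are the transcript's strand as GENCODE release 21 for mouse gives it.
Btg1, chr10:96618745-96618774, plus strand: atgtcacagctgtgaagatctggcacaaga
Ddx6, chr9:44639315-44639344, plus strand: ttagcctctggtcatgtagttgtgtgataa
Dis3, chr14:99077295-99077324, minus strand: agactcctgtgcgatagctacttttaaata
None of these windows held the ATTTA core of AU-rich elements or a whole Pumilio element. The Btg1 peak had an ATTTA elsewhere in its 70 nt.

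Known decay signals were looked for on the transcript's strand of the 176 member peaks whose sequence could be read. ATTTA, the core of AU-rich elements, occurred in 20 of them (11.4%), against 7.9% of all peaks. TATTTAT, a longer form of the same element that always contains ATTTA, occurred in 0 of 176 member peaks and in 1.3% of all peaks. TGTANATA, the recognition element of Pumilio proteins, which are known to recruit CCR4-NOT, occurred in 4 member peaks (2.3%) against 1.7% of all peaks. Of these, 1 site on the CCR4-NOT scaffold gene Cnot1 and 2 on Ddx6 are shown with the element in capitals.
Cnot1, chr8:95720162-95720191, minus strand: tcattttgaacttgTGTAAATAtatgaaag
Ddx6, chr9:44637153-44637182, plus strand: tccatccacacTGTACATAcatgtatttaa
Ddx6, chr9:44637427-44637456, plus strand: gtatacttgtataaacttTGTAAATAagtt
The peaks that hold them scored 31, 65 and 32. A match of letters does not show that the factor was bound.

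Levels of RNA were compared between members per kb of exon, as the mean of the 4 untreated libraries. The exon length took in every annotated transcript of a gene and can exceed that of the RNA made, so the ranks are rough. Xrn2, the nuclear 5′ to 3′ exonuclease, had the most at 1851 normalised reads per kb (1393 to 2265 over the 4), followed by Ddx6 at 1629 (1493 to 1789). The ranges of these neighbours overlapped. Lsm7 had the least, 20.5 (8.27 to 31.8), below Dcp1b, a decapping cofactor, at 34.1, and the exosome subunit gene Exosc5 at 62.5 (49.4 to 74.5). Of the 50-nt stretches in Lsm7 transcripts, 14.27% also occur in other genes, Gm10146 foremost, so the level of Lsm7 is uncertain. Within pairs of related genes the levels were uneven: Dcp1a, the partner of Dcp1b, was at 332.9 per kb, and the cytoplasmic exosome nuclease gene Dis3l at 114.9 against 412.7 for Dis3. In such bulk samples fewer cells of a type and less RNA per cell cannot be told apart.

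The comparison with actinomycin D asked which transcripts fell or rose relative to the others when RNA synthesis was blocked. It used 4 pairs, each made of a treated and an untreated library matched for cell type and state. Values are scaled per library, so a loss shared by all transcripts does not show, and a rise need not mean more RNA per cell. 17 of the 48 members fell and 2 rose (limma, adjusted p under 0.05), beside 21.9% of all tested genes that fell and 16.8% that rose (38.7% in all). The shares of members were 35.4% and 4.17%. The median change over the members was -0.23 on the log2 scale, against 0.002 over all genes, and 22 members were lower in all 4 pairs (45.8%, against 28.7% of all genes) while 5 were higher in all 4 (10.4% against 27.1%). Together the members made up 0.537 to 0.659% of all normalised reads without and 0.445 to 0.495% with the drug. Changes are of log2(normalised reads + 1). Each standard error (SE) given with a limma result is limma's own, with the gene's variance moderated towards that of all genes. It is not the plain spread over the 4 pairs, which can be wider or narrower. The time of the treatment is not given for these libraries. The methods take RNA for RNA-seq from crosslinked lysate cleared of nuclei and selected with oligo-dT beads, but describe lysis in Trizol for treated cells. The drug and the preparation thus cannot be told apart.

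**Figure D2:**
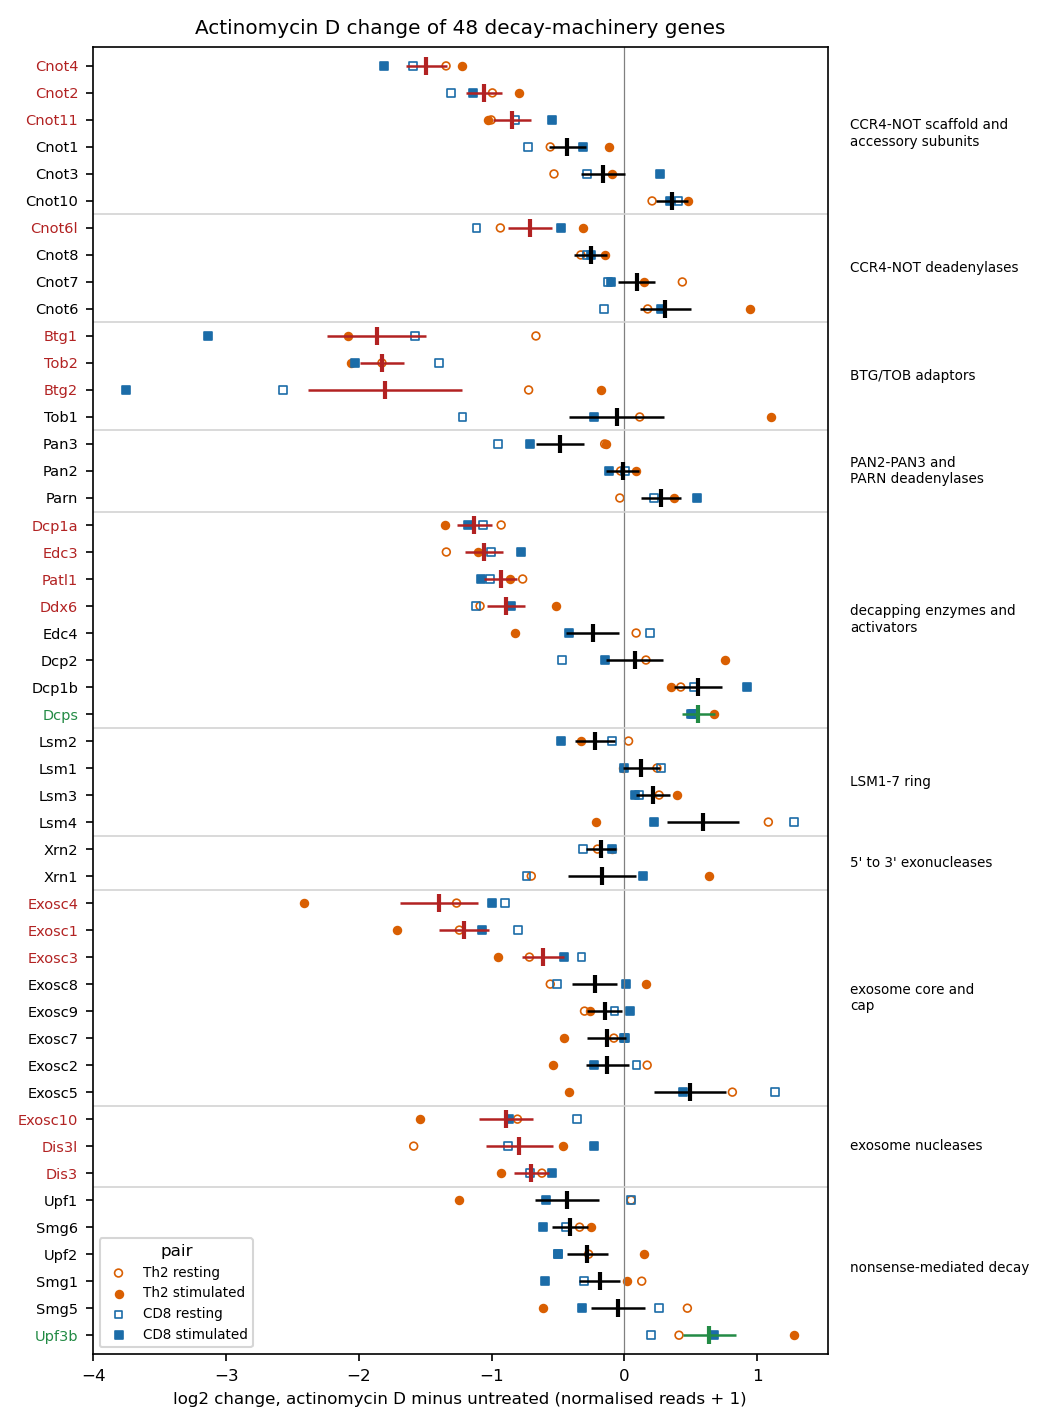
Change with actinomycin D of the 48 tested members, grouped by role. The horizontal axis is the log2 difference between treated and untreated libraries, and each open or filled symbol is 1 pair. The bar is the mean with limma's moderated standard error. It is red where the gene fell, green where it rose and black where it did not pass the test. The largest falls are in Btg1, Tob2 and Btg2, and the points of Tob1 spread from -1.22 to 1.10.

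The BTG/TOB adaptors, which bind the CCR4-NOT deadenylases and speed tail removal, showed the largest falls, in 3 of 4 members. Without the drug, Btg1 (ENSMUSG00000036478, chr10:96617001-96622813, mm10) was at 2055 normalised reads in resting and 5338 in stimulated Th2 cells, and at 2773 in resting and 8429 in stimulated CD8 cells. With it, the same 4 states stood at 1295, 1259, 930.2 and 955.6, so the groups did not overlap and the treated libraries were much closer to each other than the untreated ones. The change was -1.87 ± 0.37 (SE, n = 4 pairs, limma adjusted p = 0.0122).

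Tob2 (ENSMUSG00000048546, chr15:81848270-81858326) was at 1695, 2446, 1386 and 2524 normalised reads without the drug, in the same order of states, and at 477.3, 587.1, 526.6 and 616.9 with it. All treated libraries were well below all untreated ones, and the 4 pairs fell by similar amounts, -1.83 ± 0.16 (SE, n = 4 pairs, limma adjusted p = 0.00179). Its exons share 289 nt with a gene on the opposite strand, and whether reads were counted by strand is not given in the sources used here. Tob1, its relative, did not pass (-0.06, limma adjusted p = 0.906). It was at 348.8, 248.0, 750.6 and 587.9 without and at 378.0, 533.8, 321.9 and 500.7 with the drug, which overlapped, higher in both Th2 pairs and lower in both CD8 pairs.

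Btg2 (ENSMUSG00000020423, chr1:134075170-134079120) was at 2342, 2282, 2990 and 7554 normalised reads without the drug and at 1421, 2024, 502.0 and 559.3 with it. The fall was -2.57 and -3.75 in the resting and stimulated CD8 pairs and -0.72 and -0.17 in the Th2 pairs. Its mean of -1.805 ± 0.58 (SE, n = 4 pairs) was just inside the threshold (limma adjusted p = 0.0498), and the call ended without any of 3 pairs (resting Th2, resting CD8 or stimulated CD8), with adjusted p up to 0.126. Whether the fall differed between cell types was not tested.

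**Figure D3:**
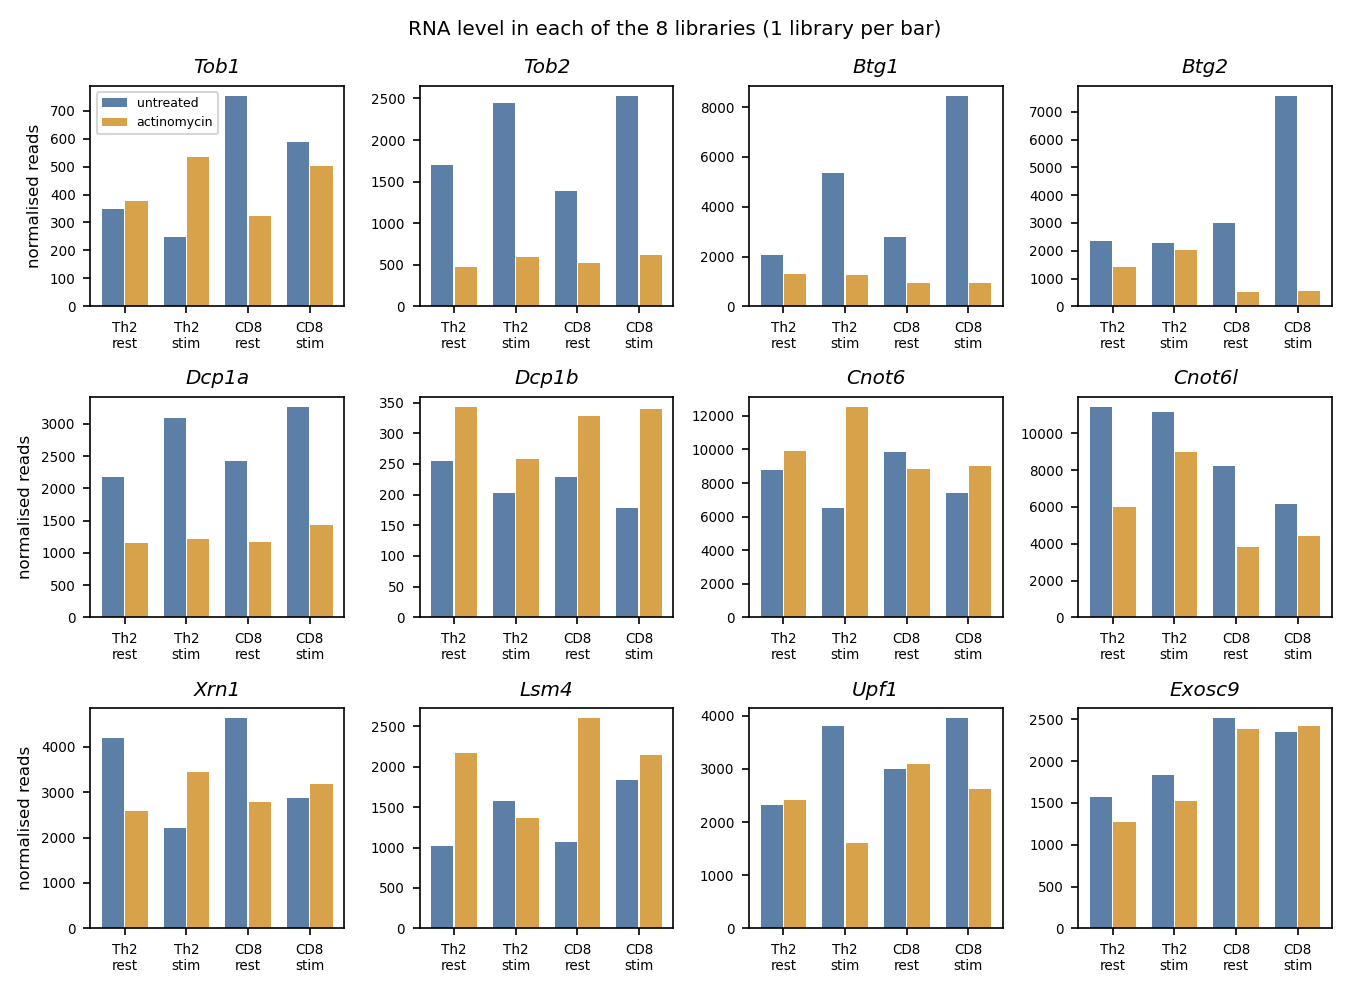
RNA level of 12 members in each of the 8 libraries, on a linear axis in normalised reads that starts at 0 and differs between genes. Blue bars are libraries without and yellow bars libraries with actinomycin D, 1 library per bar, so there is no error bar. Tob2, Btg1 and Dcp1a are lower in every treated library, whereas Dcp1b is higher in every one on the deposited scale, a direction that turned when libraries were scaled to ribosomal protein genes.

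Among the scaffold and accessory subunits of CCR4-NOT, 3 of 6 fell. Cnot4, an E3 ubiquitin ligase that joins the complex, was at 1600, 1522, 1683 and 1856 normalised reads without and at 630.0, 649.9, 558.1 and 529.5 with the drug, about the same in all 4 states on either side. Its change of -1.49 ± 0.16 (SE, n = 4 pairs, limma adjusted p = 0.0022) was the largest outside the adaptors. Cnot2, which docks on the scaffold, fell by 1.06 (limma adjusted p = 0.00345) and Cnot11 by 0.85 (adjusted p = 0.00759). Cnot1, the scaffold that holds the complex together, missed the threshold at -0.43 (adjusted p = 0.0519) although its groups did not overlap, and Cnot10, which pairs with Cnot11 in one module, stood on the other side of 0 at 0.36 (adjusted p = 0.0593).

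Of the 4 deadenylase subunit genes 1 fell. Cnot6l, a catalytic subunit of the CCR4 type, was at 11406, 11185, 8234 and 6183 normalised reads without and at 5971, 9000, 3804 and 4434 with the drug, lower in each of the 4 pairs though the groups overlapped, and it fell by 0.71 (limma adjusted p = 0.0202). Its relative Cnot6 was at 8768, 6499, 9848 and 7434 without and at 9906, 12498, 8838 and 8988 with the drug, a change of 0.31 that did not pass (adjusted p = 0.235). In every pair Cnot6 changed more towards higher values than Cnot6l. The CAF1-type subunit genes Cnot7 and Cnot8 changed by 0.09 and -0.25 (adjusted p = 0.628 and 0.149). None of the other tail-shortening enzymes passed, with Pan3, the adaptor of the PAN2 nuclease, at -0.49 (adjusted p = 0.0745), Pan2 at -0.01 and Parn at 0.28.

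Of the 8 decapping genes, 4 fell and 1 rose. Dcp1a, a cofactor of the decapping enzyme, was at 2182, 3091, 2431 and 3256 normalised reads without and at 1147, 1213, 1161 and 1439 with the drug. The groups were far apart, and the change was -1.13 ± 0.13 (SE, n = 4 pairs, limma adjusted p = 0.00283). Dcp1b, which encodes the related cofactor, was at 254.6, 202.7, 228.1 and 179.0 without and at 342.1, 258.8, 327.8 and 339.7 with the drug, higher in all 4 pairs and without overlap, but at 0.55 ± 0.18 it missed the threshold (adjusted p = 0.0522). The activators Edc3 (-1.06), Patl1 (-0.93) and Ddx6 (-0.89) fell with limma adjusted p from 0.00382 to 0.00639. Edc3 shares 1284 nt of exon with Clk3 on the opposite strand. Dcp2, the enzyme that removes the cap, stood at 0.08 (adjusted p = 0.786), and Edc4, the scaffold between enzyme and activators, at -0.24 (adjusted p = 0.368).

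Dcps, the scavenger enzyme that breaks down the cap left over after 3′ to 5′ decay, rose. It was at 1100, 881.1, 1648 and 1582 normalised reads without and at 1595, 1409, 2352 and 2241 with the drug, higher in each pair by 0.50 to 0.68, and its mean change was 0.56 ± 0.12 (SE, n = 4 pairs, limma adjusted p = 0.0168). The LSM1-7 ring, which binds shortened tails and activates decapping, had no member past the threshold among 4 tested, and the XRN exonucleases had none of 2, with Xrn1 at -0.165 (adjusted p = 0.628) and Xrn2 at -0.175 (adjusted p = 0.255).

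The exosome genes fell in part. Of 8 genes of its core and cap, Exosc4, Exosc1 and Exosc3 (by 0.61, limma adjusted p = 0.0271) fell, and all 3 of its nuclease genes did. Exosc4, a subunit of the core ring, was at 270.9, 359.0, 313.1 and 292.8 normalised reads without and at 112.2, 66.6, 167.3 and 146.0 with the drug, the groups well separated, and fell by 1.39 (limma adjusted p = 0.0142). It shares 385 nt of exon with Oplah on the opposite strand. Exosc1, a cap subunit, fell by 1.21 (adjusted p = 0.00596). The other 5 core and cap genes did not pass, from Exosc8 at -0.22 to Exosc5 at 0.495.

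Of the nuclease genes, Exosc10, which acts in the nucleus, fell by 0.89 (limma adjusted p = 0.0179). Dis3 fell by 0.70 (adjusted p = 0.00946), from 2153, 3260, 3729 and 3658 normalised reads to 1400, 1714, 2283 and 2510. Dis3l, its cytoplasmic relative, fell by 0.79, at the edge of the threshold (adjusted p = 0.0469), from 811.3, 471.1, 759.9 and 467.0 to 269.5, 341.6, 413.4 and 397.4. Both were lower in every pair, with Dis3l falling most in the resting Th2 pair.

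In nonsense-mediated decay 1 of 6 genes passed, and it rose. Upf3b, which connects UPF1 to the exon junction complex and lies on the X chromosome, was at 1313, 799.6, 1670 and 1149 normalised reads without and at 1747, 1945, 1915 and 1834 with the drug. All treated libraries were above all untreated ones, by 0.64 ± 0.20 (SE, n = 4 pairs, limma adjusted p = 0.0464), most in the stimulated Th2 pair. Smg6, the endonuclease of the pathway, missed the threshold at -0.41 (adjusted p = 0.0512), and Upf1, Upf2, Smg1 and Smg5 ranged from -0.43 to -0.05.

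For 7 pairs of related genes the difference in change was tested over the 4 pairs of libraries with an exact two-sided sign-flip permutation test, in which the smallest p that 4 pairs allow is 0.125. Dcp1a changed by 1.68 less than Dcp1b, Tob1 by 1.77 more than Tob2, Cnot6 by 1.02 more than Cnot6l and Cnot7 by 0.34 more than Cnot8, each with the same sign in 4 of 4 pairs (exact permutation p = 0.125, adjusted over 7 tests 0.219). The SD over pairs was 0.216 for Cnot6 against Cnot6l, 0.288 for Cnot7 against Cnot8 and 0.311 for Dcp1a against Dcp1b, while Tob1 against Tob2 ran from 0.18 to 3.16. For Btg1 and Btg2, Xrn1 and Xrn2, and Dis3 and Dis3l the sign differed between pairs, with means of -0.06, 0.01 and 0.09. No pair could reach a p under 0.05 in this design.

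Of 48 members, 18 had treated libraries all below the untreated ones, beside 1950 of 10972 genes (17.8%). Only 2 of 48, Dcp1b and Upf3b, had them all above, beside 1511 of 10972 genes (13.8%). 12 of the 19 calls (Btg1, Tob2, Cnot4, Exosc4, Exosc1, Dcp1a, Cnot2, Edc3, Patl1, Ddx6, Cnot11 and Dis3) held in 9 other settings of the test and without each pair in turn. Of the 17 that fell, 13 carried a listed GCLiPP peak (76.5%), and of the other 31 members 23 did (74.2%). The other 7 were lost without 1 or more pairs: Exosc3 and Dis3l without any of the 4, Cnot6l and Dcps without resting Th2, resting CD8 or stimulated CD8, Exosc10 without resting Th2 or stimulated CD8, and Upf3b without any but resting CD8, beside Btg2. Scaled to ribosomal protein genes, which moved the median of all genes to -0.63, 31 members fell and 0 rose (64.6 and 0.0%, against 41.0 and 0.401% of all genes). The changes of Dcps and Dcp1b turned to -0.07 on that scale, which was still 0.55 above the median of all genes, and that of Upf3b came to 0.01, or 0.64 above the median.

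Other genes of the same routes were counted too. Of 67 listed cofactors and relatives, 57 were tested and 22 fell and 2 rose, 38.6 and 3.51%. The largest falls were in Pelo (-2.36), which rescues stalled ribosomes, Toe1 (-2.25), a nuclear deadenylase, Smg8 (-2.12), a regulator of the SMG1 kinase, and Pnrc1 (-1.65), which can bind the decapping complex.

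The comparison of stimulated with resting cells asked how the machinery responded to 4 h of PMA and ionomycin. In the 4 untreated libraries 1 member rose and 1 fell among 48, against 6.59 and 4.69% of all genes (11.3% in all). This fit had 1 library per condition, with the cell types as replicates, so few degrees of freedom stood behind it. Btg1 rose by 1.38 in Th2 and 1.60 in CD8 cells, a mean of 1.49 ± 0.13 (SE, n = 2 cell types, limma adjusted p = 0.0243). Xrn1 (ENSMUSG00000032410, chr9:95954760-96057803), the cytoplasmic 5′ to 3′ exonuclease, fell from 4191 to 2212 normalised reads in Th2 and from 4623 to 2882 in CD8 cells, by 0.80 ± 0.14 on the log2 scale (SE, n = 2 cell types, limma adjusted p = 0.0439). It shares 604 nt of exon with a gene on the opposite strand. Both stimulated libraries of Btg1 were above both resting ones, and both of Xrn1 below.

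In that fit 14 members had an unadjusted p under 0.05 (29.2%, against 37.2% of all genes), and 12 of them did not pass the adjusted threshold, among them Lsm4 (0.70, adjusted p = 0.0524), Tob2 (0.70, adjusted p = 0.0599) and Dis3l (-0.74, adjusted p = 0.0541). Btg2 changed by -0.04 in Th2 and by 1.34 in CD8 cells. A model of all 8 libraries with an interaction called 7 higher and 4 lower, Btg1 and Xrn1 among them (14.6 and 8.33%, against 14.7 and 13.4% of all genes), and without a filter on low values no member was called. In that model leaving out the resting Th2 untreated library ended both calls, and leaving out the resting CD8 one ended that of Xrn1, with adjusted p up to 0.0924 for Btg1 and 0.0707 for Xrn1. Over all genes the calls of that model fell from 3088 to 783 and 1182 without these libraries. Of 57 other pathway genes, Mphosph6 (0.87), an exosome cofactor, and Papd7 (1.07), a non-canonical poly(A) polymerase, rose and 0 fell, with 21 at an unadjusted p under 0.05 in the limma fit (36.8%, against 37.2% of all genes).

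In the additive model of all 8 libraries the stimulation change passed in 0 of 48 members by limma, beside 0.118% of all genes, and in 0 of 49 by edgeR or DESeq2. At an unadjusted p under 0.05 limma had 4 members (8.33%, against 14.7% of all genes). The additive model averages states with and without the drug, which the next comparison separates.

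**Figure D4:**
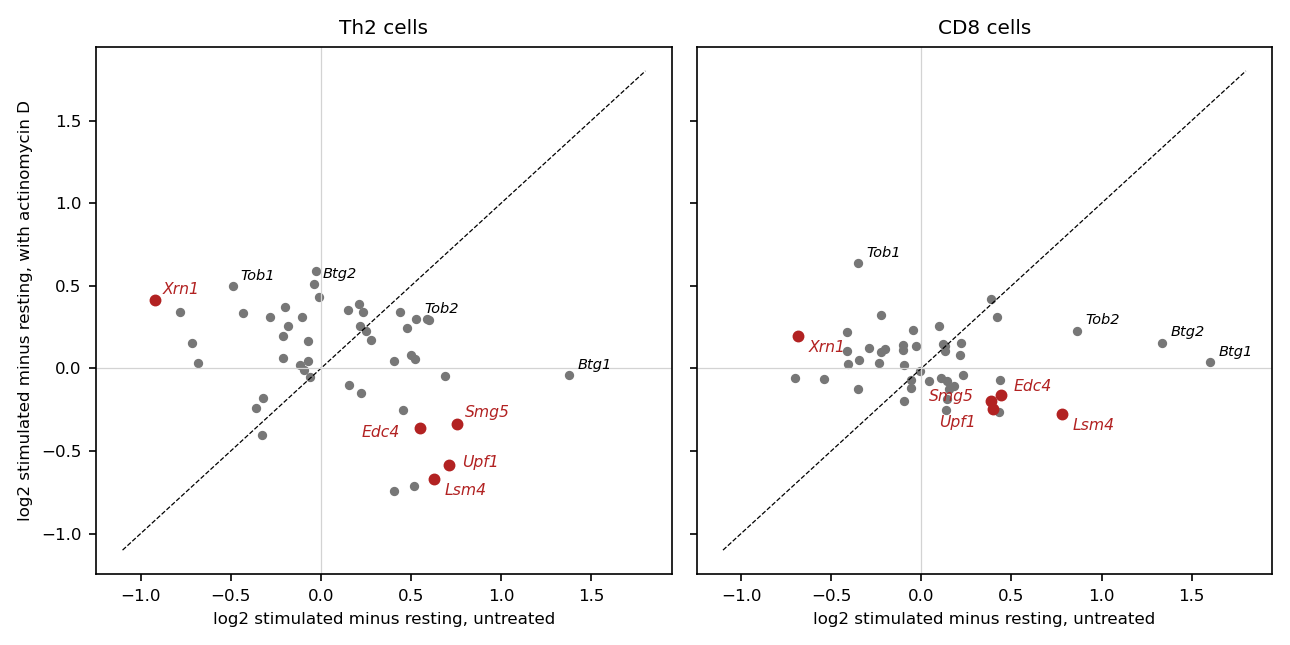
Stimulation change of the 48 members without the drug (horizontal axis) against that with actinomycin D (vertical axis), both as log2 stimulated minus resting, for Th2 cells on the left and CD8 cells on the right. Each point is 1 gene, red where the interaction passed the test, and the dashed line marks equal change. Lsm4, Upf1, Smg5 and Edc4 lie right of 0 and below it, Xrn1 left of 0 and above it, in both cell types.

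The stimulation change differed with actinomycin D in 5 of 48 members (limma interaction term over 8 libraries). It was lower with the drug in 4, against 7.44% of all genes, and higher in 1, against 7.06% (14.5% in all). These comparisons share their libraries with those above. Per the methods the drug was added after the stimulation, so the change with the drug is not a response made under blocked synthesis alone. Lsm4 (ENSMUSG00000031848, chr8:70673248-70678752) was at 1022 and 1582 normalised reads in resting and stimulated Th2 cells and at 1069 and 1835 in CD8 cells. With the drug the order turned, from 2170 to 1366 in Th2 and from 2598 to 2148 in CD8 cells. The stimulation change was thus 0.63 and 0.78 without and -0.67 and -0.27 with the drug, and the interaction -1.18 ± 0.24 (SE, 8 libraries, limma adjusted p = 0.0232).

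Upf1, the helicase at the head of nonsense decay, went with stimulation from 2323 to 3807 normalised reads in Th2 and from 2991 to 3948 in CD8 cells, and went from 2407 to 1606 and from 3100 to 2618 with the drug (interaction -0.97, limma adjusted p = 0.038). Smg5, which joins UPF1 to the decay enzymes, changed by 0.75 and 0.39 without and by -0.33 and -0.195 with the drug (interaction -0.83, adjusted p = 0.0326). For Edc4 these values were 0.55 and 0.44 against -0.36 and -0.16 (interaction -0.76, adjusted p = 0.0466). Edc4 shares 458 nt of exon with Nrn1l on the same strand, so its reads are uncertain.

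Xrn1 differed in the other direction, changing by -0.92 and -0.68 without and by 0.415 and 0.20 with the drug (interaction 1.11 ± 0.21, SE, 8 libraries, limma adjusted p = 0.02). A turn of sign in both cell types occurred in more members than were called: 8 went from up to down and 10 from down to up, 16.7 and 20.8%, beside 18.2 and 15.8% of all genes. Btg1, whose stimulation change with the drug was -0.04 in Th2 and 0.04 in CD8 cells, had the largest interaction of the members at -1.49 but missed the threshold (limma adjusted p = 0.0505). Leaving out any of 5 libraries (resting Th2 or CD8 without the drug, resting Th2 or CD8 with it, or stimulated Th2 with it) ended all 5 calls, with adjusted p up to 0.182 for Edc4 and 0.105 for Xrn1, and leaving out stimulated CD8 with the drug ended 3. Over all genes the calls fell from 1591 to between 25 and 321 without any of those 5 libraries. Without stimulated CD8 with the drug they fell to 534. Scaled to ribosomal protein genes, which moved the median interaction of all genes to 0.68, 25 members had a higher and 0 a lower interaction (52.1 and 0.0%, against 42.9 and 2.62% of all genes). Lsm4, Upf1, Smg5 and Edc4 were no longer called on that scale and stood at -1.17 (Lsm4), -0.96 (Upf1), -0.825 (Smg5) and -0.75 (Edc4) relative to that median. Among 57 other pathway genes the interaction was lower in Tut1 (-1.17), a terminal uridylyltransferase, and higher in Pnrc2 (0.87), a decapping cofactor, and Rqcd1 (0.70), a CCR4-NOT subunit.

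**Figure D5:**
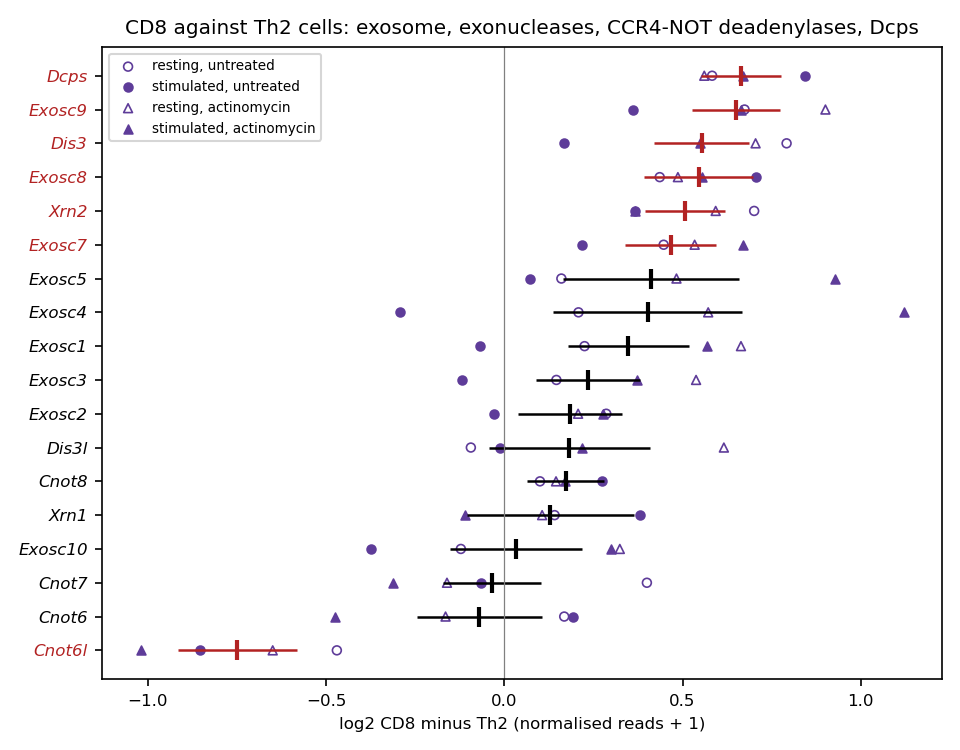
CD8 minus Th2 difference for the exosome, the exonucleases, the CCR4-NOT deadenylases and Dcps. The horizontal axis is in log2 of normalised reads + 1, and each symbol is 1 matched condition. The bar is the mean with limma's moderated standard error, red where the gene passed the test. All 8 core and cap genes of the exosome have a mean above 0, and Cnot6l is below 0 in all 4 conditions.

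The members called between the cell types included several exosome and nuclease genes, higher in CD8 cells, and Cnot6l, lower in them. In the additive model of all 8 libraries 6 of 48 members were higher in CD8 cells, beside 9.97% of all genes, and 1 was lower, beside 11.5% (21.5% in all). The share of members was 12.5 and 2.08%. At an unadjusted p under 0.05 limma had 13 members (27.1%, against 35.0% of all genes). In all 4 conditions 18 members were higher (37.5%, against 26.6% of all genes) and 3 lower (6.25% against 26.4%). Dcps (ENSMUSG00000032040, chr9:35124408-35176061) differed most among the higher ones, by 0.66 ± 0.11 (SE, 4 libraries per cell type, limma adjusted p = 0.00503). In matched conditions it was 0.56 to 0.84 above Th2, while over all 8 libraries the cell types overlapped. Dcps shares 111 nt of exon with a gene on the opposite strand.

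Exosc9, a subunit of the exosome ring, was at 1572, 1829, 1276 and 1525 normalised reads in the Th2 libraries (resting and stimulated, then both with the drug) and at 2509, 2349, 2384 and 2417 in the CD8 libraries. All CD8 libraries were above all Th2 libraries, by 0.65 ± 0.12 (SE, 4 libraries per cell type, limma adjusted p = 0.00871). It shares 510 nt of exon with Ccna2, a cyclin gene on the opposite strand. Dis3 (0.55), Exosc8 (0.55), Xrn2 (0.51) and Exosc7 (0.47) were also higher, with adjusted p from 0.0164 to 0.0419. The remaining 5 core and cap genes were between 0.185 and 0.41 and did not pass.

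Cnot6l was lower in CD8 cells by 0.75 ± 0.17 (SE, 4 libraries per cell type, limma adjusted p = 0.0173), by 0.47 to 1.02 in the 4 conditions, while Cnot6 differed by -0.07. Over the 4 conditions Cnot6 minus Cnot6l averaged 0.68, the same sign in 4 of 4 (exact permutation p = 0.125, the smallest possible, adjusted over 7 tests 0.438). Of 48 members 4 (Xrn2, Exosc7, Exosc9 and Lsm3) had CD8 libraries all above Th2 libraries, beside 807 of 10972 genes (7.36%). Pan2 alone had them all below, beside 944 of 10972 genes (8.6%). Lsm3 and Pan2 did not pass the limma test (adjusted p = 0.0563 and 0.0993). Of 57 other pathway genes 5 were higher and 2 lower, with the largest changes in Dhx34 (-1.13), a helicase of nonsense decay, Tnks1bp1 (1.06), which binds CCR4-NOT, Magohb (0.98), an exon junction protein, and Angel1 (0.77), a relative of the CCR4 nucleases.

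Dcps and Exosc9 kept their call without any library in turn, with adjusted p up to 0.0312 and 0.0455. The other 5 were lost without 1 or more, from 1 call without stimulated Th2 untreated (Exosc8) to 5 without resting or stimulated CD8 with the drug, and no call remained when libraries were scaled to ribosomal protein genes. Markers of other cells moved with the cell type: the summed level of 6 B cell markers was 9010 to 12878 in Th2 and 3363 to 8224 in CD8 libraries, mostly from Ighm, with Pax5 at 17.5 or below, that of 4 NK markers 259.4 to 375.3 and 8249 to 9248, mostly from Klrk1, which activated CD8 cells also make, and that of 5 stromal markers 1173 to 1917 and 350 to 776, mostly from Pecam1, with Col3a1 at 0. Their part in these differences was not tested.

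Whether the stimulation change differed between the cell types was asked with an interaction term, and 0 of 48 members passed by limma, beside 0.0% of all genes, and 0 of 49 by edgeR or DESeq2. At an unadjusted p under 0.05 limma had 0 members, against 0.246% of all genes. The estimates ran from -0.39 (Dis3) to 0.51 (Btg2).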

How the data were processed

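RNA-seq libraries were aligned by the authors to mm10 with STAR and GCLiPP libraries with Bowtie2, per the methods and the submitters' processing notes, which give no versions here. The deposited RNA-seq values are a signal per gene. Per the methods they were scaled to transcript length, but every value of a library was a whole multiple of 1 step for genes of all lengths (100.0% of values within 0.01 read), so they are taken as read counts that the authors divided by 1 size factor per library and are called normalised reads. Which gene counter was used, and whether by strand, is not given in the sources used here. The authors pooled all mouse GCLiPP libraries, removed PCR duplicates and called peaks of 70 nt in 3′ UTRs, and the deposited score of a peak is explained in no source. A further table held the same 8 value columns and the authors' fold changes, and was not used.

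The 10972 of 43432 genes whose mean over the 8 libraries reached 50 were tested on log2(value + 1) with limma 3.58.1 (mean-variance trend, R 4.3.3), with Benjamini-Hochberg adjustment over all of them and a threshold of 0.05. A fold change on this scale understates the change of low genes. The drug was tested with the pair as a covariate, stimulation in the 4 untreated libraries with cell type, and the other contrasts in models of all 8 libraries. Fits were tested on simulated data before use. Every condition had 1 RNA-seq library, and nothing says that libraries came from separate cultures, so p-values measure the spread over cell types and states. The depth was 24154849 to 31042504 recovered gene reads. Alternatives were pseudocounts of 0.5 and 5, no filter, a mean of at least 200, scaling to the sum of 74 ribosomal protein genes, quantile normalisation, other covariates, leaving out libraries, and edgeR 4.0.16 and DESeq2 1.42.0 on recovered reads of 7 libraries. The stimulated CD8 library with actinomycin D was not used in these count tests, because its step lies too near 1 for the recovery to be shown.

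Exon lengths, overlaps and peak sequences came from GENCODE release M21 transcripts, with Python 3.11.15, pandas 2.3.3, numpy 2.4.6 and scipy 1.17.1. Beside the overlaps named with the results, other called members share exon with genes on the opposite strand. These are Dis3 (325 nt), Cnot2 (232), Exosc8 (89), Upf1 (68 and 63) and Exosc3 (53). Members and gene lists were chosen with earlier results of these data known. The text names at most 10 called members per direction and comparison by size of change, the paralog pairs, the 5 members with most peaks and the 5 with the highest scores, members without peaks, and at most 4 other pathway genes per comparison. Called members beyond the 10 largest falls with actinomycin D, members that missed the threshold, and the extremes of level per kb were chosen after their values were seen. Some peak sequences are not reported here.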

Additional observations from a re-analysis of the deposited data

Results flagged for a closer look

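In 5 members the stimulation change differed between libraries with and without actinomycin D by a test of the difference itself (limma interaction term over 8 libraries, adjusted p under 0.05). The change was lower with the drug by the interaction in Lsm4 (-1.18), Upf1 (-0.97), Smg5 (-0.83) and Edc4 (-0.76) and higher in Xrn1 (1.11). The share of members was 8.33% lower and 2.08% higher, against 7.44 and 7.06% of all genes. In each of these genes the sign turned in both cell types, as it did from up to down in 16.7% of members and 18.2% of all genes and from down to up in 20.8 and 15.8%. All of these calls ended without any of 5 libraries, among them the resting Th2 library without the drug. Over all genes the calls fell from 1591 to between 25 and 321 without any of these 5. Treated cells were lysed in another way per the methods, so the drug and the preparation cannot be told apart.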

How the results depend on the processing

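No paired analysis was possible because the shared replicate numbers of the labels belong to GCLiPP libraries, which entered only as pooled peaks, so no fit with that number as a block could be made. The pairs of the drug comparison are matched conditions of 1 library each. With the matched condition as a block, the additive stimulation model called 0 members in either direction. The 33 calls on members, and the 7 uncalled paralogs with the drug, were recomputed under each alternative, and of these values 414 kept direction and call, 131 lost the call, 5 gained one and 10 turned. Members named without a call and other pathway genes were not recomputed.

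With actinomycin D the number of members that rose (2) became 1 without a filter on low values, 0 with ribosomal scaling, edgeR or DESeq2, 4 with quantile normalisation and 7 with the interaction model (14.6%, where 3291 of 10972 genes rose), and the number that fell (17) became 31 with ribosomal scaling (64.6%, against 41.0% of all genes). Leaving out pairs gave 0 to 3 higher (0.0 to 6.25%, against 5.81 to 15.6% of all genes). It gave 12 to 17 lower (25.0 to 35.4%, against 14.4 to 21.4% of all genes). Ribosomal scaling turned Dcps (-0.074), Dcp1b (-0.074), Cnot6 (-0.322) and Cnot7 (-0.539). Tob1 turned with quantile normalisation (0.123), DESeq2 (0.012) and without the resting CD8 pair (0.329), Cnot7 without the resting Th2 pair (-0.023), and Xrn1 without the resting Th2 (0.014) or resting CD8 pair (0.025). Over the 4 left-out pairs Cnot7 ran from -0.023 to 0.164, Tob1 from -0.445 to 0.329 and Xrn1 from -0.432 to 0.025.

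In the untreated stimulation comparison 0 members were called in either direction without a filter, beside 0.0% of all genes. With ribosomal scaling 15 fell (31.2%, against 28.6% of all genes), and 7 rose and 4 fell in the interaction model (14.6 and 8.33% against 14.7 and 13.4%). Leaving out libraries in that model, an alternative chosen after seeing the data because 3 untreated libraries leave no residual degrees of freedom, gave 1 to 12 higher (6 without the stimulated Th2 or the stimulated CD8 library with the drug) and 0 to 4 lower. These were 2.08 to 25.0% and 0.0 to 8.33% of members, against 4.4 to 19.9% and 2.73 to 17.5% of all genes. For the interaction of stimulation and drug, the higher and lower members numbered 25 and 0 with ribosomal scaling (52.1 and 0.0%, against 42.9 and 2.62% of all genes). They numbered 5 and 2 with quantile normalisation (10.4 and 4.17%, against 7.93 and 6.14%) and 0 and 1 with edgeR (0.0 and 2.04%, against 0.933 and 1.24%). DESeq2 gave 2 higher (4.08%, against 5.2% of all genes), and the fit without a filter 1 lower (2.04%, against 2.13%). Leaving out libraries gave 0 to 4 higher (0.0 to 8.33%, against 0.0638 to 14.8% of all genes). It gave 0 to 8 lower (0.0 to 16.7%, against 0.164 to 15.4%). Between cell types 0 were called in either direction with ribosomal scaling, beside 5.76% of all genes higher and 7.68% lower. With edgeR 2 were higher and 0 lower (4.08 and 0.0%, against 5.85 and 10.2%). Leaving out libraries gave 2 to 5 higher (4.17 to 10.4%, against 5.58 to 10.8%) and 0 to 1 lower (0.0 to 2.08%, against 7.78 to 11.8%). The cause of these changes was not tested, beyond the shifts of the median of all genes with ribosomal scaling: -0.63 with the drug, -0.37 with stimulation and 0.68 for the interaction. Quantile normalisation moved the median with the drug to 0.13.

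Over all genes the drug comparison called 1842 higher and 2403 lower, against 44 and 4496 with ribosomal scaling and 2597 and 2012 with quantile normalisation. On recovered reads edgeR called 2186 genes and DESeq2 3518, against 4245 by limma. For the interaction with the drug these were 321 and 1797 against 1591, or 940 without a filter and 5000 with ribosomal scaling, and between cell types 2259 and 2955 against 2358, or 1475 with ribosomal scaling. With untreated stimulation ribosomal scaling called 3666 and the fit without a filter 0, against 1238. In the additive stimulation model edgeR called 3 and DESeq2 428 against 13. For the difference of stimulation between cell types DESeq2 called 16 and edgeR 0. Of the members 26 had a peak of at least the median score (53.1%, against 40.1% of the genes tested in RNA-seq). With any peak there were 37 (75.5%, against 59.1%). At 1 library per condition a change specific to 1 state cannot be tested.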
